A study of Mus musculus with 80 samples.

Results

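Exonic bystander alleles of *Ptbp1* splice-site editing are sequenced alleles in which guanine replaced an adenine on the exon side of the splice site that the editor was aimed at. They were taken from allele tables of Hepa1-6 cells, a mouse hepatoma line from a C57L mouse, and every allele row with G at a reference adenine between the base 2 positions after the target adenine and position 20 of the protospacer was kept. Of 11389 allele rows in 80 tables, 1931 met this rule, 1885 of them in edited samples and 46 in controls, and they held 45530 of 343154 reads (13.3%). Their 682 different window sequences were part of 3698 in all.

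The study set out to disrupt *Ptbp1* by changing the adenine of a splice site, and 7 of its guides at exon-intron junctions are described here (labelled sgRNA1, sgRNA2, sgRNA3, sgRNA5, sgRNA6, sgRNA7 and sgRNA9). Each guide was given with SpG-ABEmax or SpG-ABE8e, and sgRNA1, sgRNA6 and sgRNA7 also with SpCas-ABEmax or SpCas-ABE8e, which makes 20 edited groups of 3 samples. Each guide also had control samples, 3 per guide except 2 for sgRNA6, which the study describes as transfected with the sgRNA. The transfection is given for all samples as 400 ng of total DNA with 0.5 ul of Lipofectamine, and all groups share the same cell line. Where the labels write ABE without a version it was read as ABEmax, the name other labels of the series carry.

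Adenine base editors are fusions of nicking Cas9 and a deaminase. On the DNA strand that the guide displaces, the deaminase turns adenine into inosine, which polymerases read as guanine. SpCas requires an NGG PAM and SpG accepts NGN, while ABEmax and the later variant ABE8e differ in the deaminase. Any other adenine within reach is a bystander, and on the exon side it can change a codon, as far as the genetic code is not degenerate at that base. PTBP1, polypyrimidine tract binding protein 1, is an RNA-binding repressor of splicing with several RNA recognition motifs.

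The guides are shown because the place of each exonic adenine defines the alleles. They are written on the guide strand in lower case with the 3 bases of the PAM at the end, and capitals mark the exonic adenines. Positions are counted from 1 at the 5′ end of the guide.
exon 1 donor: acttacccgtccAtggcAcAcgg
exon 3 acceptor: ttctcagcggggAtccgAcgagc
exon 3 donor: cttacctgctgAggcAgAgctgc
exon 7 acceptor: cccacagtccctggAtggccaga
exon 7 donor: cttaccAAAggctgctgccAtgg
exon 8 donor: aatacctgcggcctgAgggAtgg
exon 9 donor: acatacctcAgggttcAgAttgc

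In the mouse build GRCm39 the protospacers lie on chromosome 10 in *Ptbp1* (ENSMUSG00000006498.18, chr10:79690261-79700605, plus strand). At exon 1, sgRNA1 spans chr10:79690542-79690561. At exon 3, sgRNA2 spans the acceptor (chr10:79694579-79694598) and sgRNA3 the donor (chr10:79694644-79694663). At exon 7, sgRNA5 spans the acceptor (chr10:79695608-79695627) and sgRNA6 the donor (chr10:79695775-79695794). The donor of exon 8 is spanned by sgRNA7 (chr10:79696014-79696033) and that of exon 9 by sgRNA9 (chr10:79696790-79696809). These are the numbers of the sample labels, and each site was read from the reference sequence in the tables. The study's oligo list numbers both exon 3 guides the other way round and gives the exon 9 guide another number. Donor guides lie on the minus strand, so their A-to-G changes read as T-to-C in the transcript, and acceptor guides lie on the plus strand.

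Together the 7 guides hold 18 exonic adenines. In transcript ENSMUST00000172282.8, which encodes 555 amino acids, 9 of them give a missense change, 6 are synonymous, 2 lie in the 5′ UTR and 1 is in the start codon. None of the 18 changes makes a stop codon.

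At the exon 1 donor, A13G changes the start codon (M1T), and A18G and A20G lie in the 5′ UTR. At the exon 3 acceptor, A13G is synonymous in codon 15 and A18G gives D17G. At the exon 3 donor, A12G gives S36P, A16G is synonymous in codon 34 and A18G gives S34P. In 1 of 20 coding transcripts the exon 3 adenines are read in another frame. At the exon 7 acceptor, A15G gives D241G. At the exon 7 donor, A7G, A8G and A9G fall in the same codon, phenylalanine 296, where A7G is synonymous, A8G gives F296S and A9G gives F296L, and A20G gives M292T. At the exon 8 donor, A16G is synonymous in codon 319 and A20G gives I318T. These exon 8 adenines are coding in only 4 annotated transcripts, against 13 for the exon 7 donor and 12 for the exon 9 donor. At the exon 9 donor, A10G is synonymous in codon 370, A17G gives L368P and A19G is synonymous in codon 367.

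The tables hold 399 to 18227 reads, with a median of 3799.5, and 2 of them hold fewer than 1000 reads (1 exon 3 donor control and 1 exon 1 SpCas-ABEmax sample). Mean editing of the target adenine ranged from 0.295% (exon 7 acceptor, SpG-ABEmax) to 92.9% (exon 3 donor, SpG-ABE8e). No 2 tables of a group were identical. The allele counts of 26 of 60 pairs of edited tables and 14 of 19 pairs of control tables did not differ beyond counting noise (chi-square test of reads, p above 0.05), while their read totals differed, and each table was kept as a sample. SpCas-ABE8e replicate 1 at the exon 7 donor, the deepest table, had less editing than the other 2 samples of its group. Values without it are also given. Control replicate 3 of the exon 9 donor differed from replicates 1 and 2 by the same chi-square test (p = 3.56e-252 and 6.2e-254). Its target adenine was read as G in 0.194% of reads, against 0.0360% and 0.0467%. Its share of any exonic G, 0.0528%, lay between theirs of 0.0720% and 0.0467%. Both shares rest on few reads (at the target 11 in replicate 3, against 2 and 2). The alleles behind the small p-values were not singled out.

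Exonic bystander editing was concentrated at the exon 7 donor. Adenines were described as edited with a given editor if the group's mean share of G was over 1 percentage point above the highest control sample of that guide. By this limit 15 of 54 combinations of adenine and edited group passed (14 when only alleles of at least 0.2% of reads were counted), against a background of 7.86% over all A, C and T positions of the protospacers but the target, these adenines included. The 15 combinations involved 6 adenines: A7G, A8G and A9G at the exon 7 donor, A10G at the exon 9 donor, A12G at the exon 3 donor and A13G at the exon 1 donor. Of these 6, 3 were missense, 2 synonymous and 1 in the start codon. The lowest combination inside the limit was A12G at the exon 3 donor with SpG-ABE8e (1.12% ± 0.0678), and the highest outside it was A9G at the exon 7 donor with SpG-ABEmax (0.875% ± 0.199, both SD, n = 3).

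By the weaker criterion that each edited sample exceeds each control, 26 of 54 combinations were higher, against a background of 24.3%. In 2 combinations each edited sample was lower, and no background was computed for that direction. Both were A20G at the exon 7 donor, with SpCas-ABEmax and SpCas-ABE8e, where only 2 controls exist. With 3 samples against 3 the exact permutation test cannot go below p = 0.1 (0.2 against 2 controls), and the smallest p adjusted over the 54 combinations was 0.372. At the C and T positions of the same protospacers, 12.5% of combinations met this weaker criterion, and 0 of 208 met the limit of 1 percentage point.

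A7G at the exon 7 donor, synonymous in the codon of F296 and at exonic base 2 counted from the junction, was the most frequently edited exonic adenine. With SpCas-ABE8e it was read as G in 74.2%, 86.7% and 85.6% of reads in replicates 1, 2 and 3. With SpG-ABE8e the shares were 71.6%, 69.1% and 71.9%. With SpCas-ABEmax they were 28.6%, 28.9% and 27.7%, and with SpG-ABEmax 17.6%, 16.1% and 15.9%. The control samples had 0.0488% and 0.0489%. The 4 editors therefore formed separate ranges, in the order SpCas-ABE8e, SpG-ABE8e, SpCas-ABEmax and SpG-ABEmax, and all lay above the controls. The group means were 82.2% ± 6.94, 70.9% ± 1.56, 28.4% ± 0.599 and 16.6% ± 0.892 in the same order (SD, n = 3), and without SpCas-ABE8e replicate 1 the first of them was 86.2%. Taken alone, this change leaves the amino acid of the codon as it was, and its effect on RNA or protein was not tested.

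A8G at the same donor, which replaces phenylalanine with serine, was found in 3.48%, 4.67% and 4.45% of reads with SpCas-ABE8e. The shares were 3.65%, 3.83% and 3.20% with SpCas-ABEmax, 2.79%, 3.29% and 2.20% with SpG-ABE8e, and 1.96%, 1.25% and 1.24% with SpG-ABEmax. Here the SpCas-ABE8e and SpCas-ABEmax samples overlapped, whereas all SpG-ABE8e samples exceeded all SpG-ABEmax samples.

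A9G, which replaces phenylalanine with leucine, had shares of 2.33%, 3.43% and 3.23% with SpCas-ABE8e and of 1.70%, 1.72% and 1.38% with SpCas-ABEmax. With SpG-ABE8e they were 1.15%, 1.46% and 1.30%, and with SpG-ABEmax 0.898%, 1.06% and 0.665%. The 2 deaminases did not overlap with either Cas9 variant. A control share of 0.0488% was the highest at both A8G and A9G. The fourth adenine of this guide, A20G (M292T), stayed between 0% and 0.0656% of reads in edited samples, against 0.0488% and 0.0489% in the controls.

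From A7G to the neighbouring A8G the mean share fell from 82.2% to 4.20% with SpCas-ABE8e and from 28.4% to 3.56% with SpCas-ABEmax. The ratio of ABE8e to ABEmax was 2.89 at A7G, 1.18 at A8G and 1.87 at A9G with SpCas. With SpG the same ratios were 4.28, 1.86 and 1.49.

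Alleles were next read as whole combinations, since the codon depends on all changes of a read. The sequences below are the protospacers of the exon 7 donor alleles that made up most of the edited reads, and capitals mark the edited bases, including the target A4G.
target alone, A4G: cttGccaaaggctgctgcca
A4G+A7G: cttGccGaaggctgctgcca
A7G alone: cttaccGaaggctgctgcca
A4G+A7G+A8G: cttGccGGaggctgctgcca
A4G+A7G+A9G: cttGccGaGggctgctgcca
A8G alone: cttaccaGaggctgctgcca

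With SpCas-ABE8e, the allele A4G+A7G made up 67.8%, 78.5% and 78.2% of reads, and A4G alone 3.51%, 3.83% and 3.55%. With SpG-ABE8e, A4G+A7G accounted for 66.7%, 63.4% and 67.5% and A4G alone for 7.12%, 7.85% and 6.93%. The order was opposite with ABEmax. With SpCas-ABEmax, A4G alone reached 26.1%, 24.7% and 27.0%, A7G alone 18.9%, 18.6% and 18.3%, and A4G+A7G only 7.71%, 7.98% and 7.76%. With SpG-ABEmax, A4G alone reached 19.3%, 16.5% and 15.7%, A7G alone 13.7%, 13.6% and 13.1%, and A4G+A7G 3.27%, 2.17% and 2.46%. A7G alone, by contrast, made up 0.921% ± 0.186 of reads with SpCas-ABE8e and 1.36% ± 0.0455 with SpG-ABE8e.

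Reads with both A4G and A7G can be set against the product of the 2 separate shares. With SpCas-ABE8e their share was 1.28, 1.10 and 1.12 times the product, and with SpG-ABE8e 1.27, 1.29 and 1.26 times. With SpCas-ABEmax it was 0.801, 0.842 and 0.804 times, and with SpG-ABEmax 0.836, 0.723 and 0.834 times. All 6 ABE8e samples lay above 1 and all 6 ABEmax samples below it.

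The codon-changing alleles carried A7G more often with ABE8e than with ABEmax, as did reads of any kind. Over all reads A7G was in 82.2% with SpCas-ABE8e, 70.9% with SpG-ABE8e, 28.4% with SpCas-ABEmax and 16.6% with SpG-ABEmax. Among target-edited reads it was in 95.4% ± 0.299 with SpCas-ABE8e and 90.2% ± 0.826 with SpG-ABE8e. Among reads with A8G, 96.2% ± 0.224 also held A7G with SpCas-ABE8e and 94.6% ± 1.14 with SpG-ABE8e. With SpCas-ABEmax 42.0% ± 1.92 did, and with SpG-ABEmax 22.2% ± 8.87. Among reads with A9G, A7G was present in 94.6% ± 0.652 with SpCas-ABE8e and in 32.7% ± 3.78 with SpCas-ABEmax. With SpG-ABE8e it was present in 91.1% ± 4.09 of them and with SpG-ABEmax in 14.0% ± 6.39. Accordingly the leading codon-changing allele was A4G+A7G+A8G with SpCas-ABE8e (3.52% ± 0.470 of all reads) and SpG-ABE8e (2.39% ± 0.534), but A8G alone with SpG-ABEmax (0.925% ± 0.335). With SpCas-ABEmax, A8G alone (1.30% ± 0.125) and A7G+A8G (1.21% ± 0.168) lay within each other's spread, and the latter was higher in replicate 2.

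Taken by the residue they encode, 75.8% ± 5.93 of SpCas-ABE8e reads had a synonymous phenylalanine codon, 3.71% ± 0.469 encoded serine, 2.50% ± 0.420 leucine and 0.494% ± 0.185 proline, which needs A8G and A9G in the same read. With SpG-ABE8e the shares were 67.2% ± 2.16, 2.59% ± 0.541, 1.13% ± 0.2002 and 0.171% ± 0.0510. With SpCas-ABEmax they were 26.4% ± 0.324, 3.52% ± 0.340, 1.56% ± 0.2003 and 0.0429% ± 0.0262. With SpG-ABEmax 16.1% ± 0.761 of reads were synonymous, 1.48% ± 0.412 encoded serine, 0.875% ± 0.199 leucine, and no read encoded proline, in tables of 3773 to 4510 reads where 3 reads correspond to 0.0665% to 0.0795%.

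Codon-changing reads of any kind at the exon 7 donor amounted to 5.52%, 7.55% and 7.08% with SpCas-ABE8e, to 5.56% at most and 4.57% at least with SpCas-ABEmax, to 3.40% to 4.64% with SpG-ABE8e and to 1.91% to 2.88% with SpG-ABEmax, against 0.0978% and 0.146% in the controls. The SpCas-ABE8e and SpCas-ABEmax ranges overlapped through SpCas-ABE8e replicate 1, and the SpG ranges did not.

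Most of the codon-changing ABEmax reads of the exon 7 donor left the splice site unedited, as did most ABEmax reads of any kind there. Target editing was 35.1% ± 0.711 with SpCas-ABEmax and 20.1% ± 2.44 with SpG-ABEmax. With SpCas-ABE8e it was 85.1% ± 7.23 and with SpG-ABE8e 76.9% ± 1.03. Codon-changing reads without A4G made up 3.73% ± 0.179 of all reads with SpCas-ABEmax and 2.06% ± 0.474 with SpG-ABEmax, but 0.126% ± 0.0206 with SpCas-ABE8e and 0.205% ± 0.0516 with SpG-ABE8e (SD, n = 3). These were 68.8% to 77.1% of the codon-changing reads of a sample with SpCas-ABEmax and 81.4% to 91.0% with SpG-ABEmax, against 1.42% to 2.68% with SpCas-ABE8e and 3.15% to 7.07% with SpG-ABE8e. ABE8e minus ABEmax was -2.73 percentage points on average over the 2 Cas9 variants (exact permutation test of the deaminase labels within each variant, 400 arrangements, two-sided p = 0.005, the smallest they allow, a test added after the values were seen). The tested shares are of all reads, so this difference also depends on target editing. The controls had 0.0734% and 0.146%, a range that overlapped those of SpCas-ABE8e (0.107% to 0.148%) and SpG-ABE8e (0.146% to 0.240%).

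A10G at the exon 9 donor, a synonymous change in proline 370, was the next most edited adenine. SpG-ABE8e gave 5.26%, 4.503% and 5.09% of reads, and SpG-ABEmax 0.509%, 0.429% and 0.549%. Control samples had at most 0.0352%, so 3 separate ranges were seen. The ratio of the deaminases was 9.99. The target edit was present in 97.8% to 100% of the A10G reads with SpG-ABE8e and in 68.0% to 81.0% with SpG-ABEmax. A17G (L368P) at this site did not exceed 0.0825% and A19G 0.0375% in any edited sample, with control maxima of 0.0233% and 0.0360%. Codon-changing reads at the exon 9 donor were therefore rare, 0.0645% ± 0.0156 with SpG-ABE8e and 0.0341% ± 0.0426 with SpG-ABEmax, against 0.0196% ± 0.0032 in the controls.

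At the exon 3 donor, A12G replaces serine 36 with proline. SpG-ABE8e gave 1.09%, 1.20% and 1.07% of reads and SpG-ABEmax 0.135%, 0.159% and 0.189%. Controls had 0.0665%, 0% and 0.0421%, the second of them in a table of 399 reads in which 3 reads are 0.752%. The ABE8e samples all exceeded the ABEmax samples, and these exceeded the controls, although the shallow control table cannot show shares of the ABEmax level. A16G, which is synonymous, reached 0.258% ± 0.0464 with SpG-ABE8e and 0.0507% ± 0.0440 with SpG-ABEmax, and A18G (S34P) stayed at or below 0.0318% with a highest control of 0.0444%. Target editing at this site was 92.9% ± 1.02 and 71.8% ± 1.30, so A12G was found in 1.14% to 1.27% of the target-edited reads with SpG-ABE8e and in 0.105% to 0.164% with SpG-ABEmax.

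At the exon 1 donor, A13G turns the start codon from ATG to ACG. The deaminase of the groups is given here as labelled. Whether labels were exchanged at this guide was not tested, and an exchange of the SpCas labels would turn the direction of the SpCas difference. With SpCas-ABEmax it was found in 51 of 3038, 5 of 599 and 18 of 1185 reads, or 1.68%, 0.835% and 1.52%. With SpG-ABE8e the shares were 1.46%, 1.35% and 1.92%. With SpCas-ABE8e only 0.0707%, 0.0532% and 0.110% of reads carried it, and with SpG-ABEmax 0.190%, 0% and 0.0778%, where 0 of 1621 reads allows a share of up to 0.185%. The controls had 0.0574%, 0% and 0%. All samples labelled SpCas-ABE8e thus lay below all those labelled SpCas-ABEmax, whereas all SpG-ABE8e samples lay above all SpG-ABEmax samples.

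The same order was seen for any exonic adenine of the exon 1 donor. By the labels, ABE8e minus ABEmax was -1.55 percentage points with SpCas (0.267% ± 0.170 against 1.81% ± 0.502) and 1.97 with SpG (2.11% ± 0.392 against 0.141% ± 0.124). The difference between these 2 effects was -3.52 percentage points (exact permutation test over 400 arrangements, two-sided p = 0.005, the smallest they allow, and 0.015 after adjustment over the 3 sites with both Cas9 variants), a test added after the values were seen. It exchanged the deaminase labels within each variant. Its null is no deaminase effect with either variant, so it does not test whether the 2 effects are equal. Target editing did not follow this order, since ABE8e exceeded ABEmax by 10.6 points with SpCas and by 10.9 with SpG (exact permutation p = 0.985 for the difference, under the same null). Among target-edited reads, 4.57% ± 1.70 held an exonic G with SpCas-ABEmax, 0.514% ± 0.305 with SpCas-ABE8e, 6.21% ± 0.592 with SpG-ABE8e and 0.166% ± 0.287 with SpG-ABEmax. Intronic bystander reads at this donor made up 1.83% ± 0.477 with SpCas-ABEmax, 0.271% ± 0.144 with SpCas-ABE8e, 0.258% ± 0.198 with SpG-ABE8e and 0.0882% ± 0.0313 with SpG-ABEmax.

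The 5′ UTR adenine A18G of exon 1 reached 0.524% ± 0.172 with SpG-ABE8e and 0.404% ± 0.196 with SpCas-ABEmax, and A20G did not exceed 0.167% in a sample, against a highest control of 0.0660%.

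At the remaining sites no exonic adenine passed the limit. At the exon 8 donor, A16G (synonymous) made up 0.498% ± 0.107 of reads with SpCas-ABE8e, while the other 3 editors had means from 0.0735% to 0.158% and the highest control 0.106%. A20G (I318T) there did not exceed 0.0733%, with a control maximum of 0.0708%. At the exon 3 acceptor, A13G (synonymous) reached 0.329% ± 0.187 with SpG-ABE8e and 0.0446% ± 0.0772 with SpG-ABEmax, with a control maximum of 0.0898%. A18G (D17G) stayed at or below 0.0539% in edited samples and 0.0449% in controls. At the exon 7 acceptor, A15G (D241G) was at most 0.0287% in edited samples and 0.0304% in controls. No difference from the controls was detectable for A15G at this depth.

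Exonic adenines were grouped by their position in the guide. SpG-ABE8e, like SpG-ABEmax, was used at all 7 sites. With SpG-ABE8e the 4 adenines at positions 7 to 10 had mean shares of 1.30% to 70.9%. The 3 at positions 12 and 13 had 0.329% to 1.58%, and the 11 at positions 15 to 20 had 0% to 0.524%. No combination from position 15 on passed the limit of 1 percentage point with any editor (0 of 32), compared with 12 of 14 at positions 7 to 10 and 3 of 8 at positions 12 and 13. Within and between these ranges the order was not steady, since A10G of the exon 9 donor (4.95%) exceeded A8G and A9G of the exon 7 donor, and A18G of the exon 1 donor (0.524%) exceeded A13G of the exon 3 acceptor. Of the 4 adenines at positions 7 to 10, 3 belong to the exon 7 donor guide.

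Relative to target editing of the same group, the SpG-ABE8e share was 92.2% at A7G and 3.59% at A8G of the exon 7 donor, 6.79% at A10G of the exon 9 donor and 1.20% at A12G of the exon 3 donor. A13G of the exon 1 donor stood at 6.30% of its target and A13G of the exon 3 acceptor at 0.910%. Position 13 thus had different levels at the 2 sites.

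By the preceding base, 8 exonic adenines follow C, 8 follow G and 2 follow A, and none follows T. With SpG-ABE8e the median share was 0.391% after C (0.0455% to 70.9%) and 0.0285% after G (0% to 1.12%). The 2 adenines after A are A8G and A9G of the exon 7 donor, at 2.76% and 1.30%. The limit was passed by 7 of the 26 combinations after C, 1 of the 20 after G and 7 of the 8 after A. Position and preceding base are tied in these guides, because the adenines at positions 7 to 10 all follow C or A, and adenines of the same guide share reads, so their parts cannot be told apart.

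Over all sites, the share of reads with an exonic G was higher in edited than in control samples by 7.92 percentage points (mean over the 7 sgRNAs; permutation of labels within sgRNAs, 100000 resamples, two-sided p = 1e-05, the smallest they can give, adjusted p = 8e-05 over 8 tests). The difference was 50.7 points at exon 7 (donor), 2.73 at exon 9, 1.03 at exon 1 and 0.725 at exon 3 (donor), and at the other 3 sites between -0.00408 and 0.126. Without the exon 7 donor the mean difference was 0.784 points (permutation p = 0.00602).

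Codon-changing reads were higher by 0.822 percentage points (permutation p = 3e-05, adjusted 8e-05). Leaving out the exon 7 donor gave 0.222 points (permutation p = 0.0148), and for adenines from position 13 on it was 0.101 and did not pass (permutation p = 0.151). This difference was 4.42 points at the exon 7 donor, 0.753 at the exon 1 donor and 0.595 at the exon 3 donor, and lay between -0.0244 and 0.0296 at the other 4 sites.

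ABE8e gave more exonic bystander reads than ABEmax, by 11.05 percentage points on average over the 10 pairs of groups with the same guide and Cas9 variant (permutation within pairs, p = 3e-05, adjusted 8e-05). All ABE8e samples exceeded all ABEmax samples in 7 of the 10 pairs, the reverse was seen in 1 (exon 1 donor with SpCas), and the pairs at the exon 7 acceptor and at the exon 8 donor with SpG overlapped. Adenine by adenine, ABE8e was higher without overlap in 13 of 27 comparisons, against a background of 17.9%, and lower in 1, against 2.86%. With 3 samples against 3 none can pass the exact permutation test, whose smallest adjusted p was 0.193. Without the exon 7 donor the mean difference was 0.858 points (permutation p = 0.00331).

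For codon-changing reads the difference was 0.437 percentage points (permutation p = 0.0046, adjusted 0.00613). It came to 1.58 and 1.55 points at the exon 7 donor with SpCas and SpG, to 0.967 at the exon 3 donor, and to -1.27 and 1.49 at the exon 1 donor with SpCas and SpG. Without the exon 7 donor it was 0.154 points and no longer passed (permutation p = 0.226), and without replicate 2 of each group it was 0.358 (permutation p = 0.0596).

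Among reads with the target edit, the share with an exonic G was higher by 19.4 percentage points with ABE8e over the 8 pairs in which each sample had at least 50 such reads (permutation p = 9e-05, adjusted 0.00018). The difference was 69.4 points at the exon 7 donor with SpCas, 75.9 with SpG, 6.19 at the exon 9 donor and 1.24 at the exon 3 donor. At the exon 1 donor it was 6.04 with SpG but -4.06 with SpCas, the only pair in which all ABE8e samples lay below all ABEmax samples, and at the exon 8 donor it was 0.477 with SpCas and 0.0646 with SpG.

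Averaged over the 3 guides tested with both, SpCas gave more exonic bystander reads than SpG, by 4.09 percentage points (permutation within guide and deaminase, p = 0.00278, adjusted 0.00445). The exon 7 donor showed 13.1 points with ABEmax and 11.3 with ABE8e, the exon 1 donor 1.67 and -1.85, and the exon 8 donor -0.0593 and 0.375. Without the exon 7 donor the mean was 0.036 points (permutation p = 0.89). Among target-edited reads the difference was 2.66 points (permutation p = 0.0168 before and after adjustment), and it was -0.232 without the exon 7 donor (permutation p = 0.825) and did not pass when any replicate number was left out (2.38 to 2.82 points, permutation p between 0.0617 and 0.0868).

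Exonic bystanders were on the whole more frequent in reads that carried the target edit. In 55 edited samples of 19 groups with at least 50 reads in each class, the share was higher among target-edited reads in 37, lower in 17 and equal in 1, and the mean difference over groups was 9.36 percentage points (sign-flip permutation test, two-sided p = 0.00696, adjusted 0.00795). It was 1.27 points without the exon 7 donor (permutation p = 1e-05). At the exon 9 donor with SpG-ABE8e the share was 6.82% ± 0.492 with the target edit and 0.202% ± 0.234 without it, and at the exon 1 donor with SpG-ABE8e 6.21% ± 0.592 and 0.793% ± 0.281. At the exon 3 donor with SpG-ABE8e it was 1.47% ± 0.0842 and 0.382% ± 0.117.

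The exon 7 donor departed from this with ABEmax. At the exon 8 donor with SpG-ABEmax the share was also lower, 0.110% ± 0.0246 against 0.181% ± 0.00865. These shares rest on few reads and lie near the control mean of 0.128% at this site. Of the other ABEmax groups with enough reads, the exon 8 donor with SpCas differed by -0.0208 points and the exon 3 donor by 0.0244. The exon 1 donor differed by 0.0265 points with SpG and 4.21 with SpCas, and the exon 9 donor by 0.229. At the exon 7 donor with SpCas-ABEmax, 26.3% ± 1.84 of target-edited reads held an exonic G, against 34.4% ± 0.613 of the other reads. With SpG-ABEmax it was 14.6% ± 1.74 against 19.4% ± 1.52. All 6 ABEmax samples of the exon 7 donor had the lower share among target-edited reads. With SpCas-ABE8e the shares were 95.7% ± 0.287 and 7.73% ± 2.63, and with SpG-ABE8e 90.5% ± 0.781 and 6.76% ± 0.410. The difference between the classes was 92.3 points higher with ABE8e than with ABEmax (exact permutation test within each Cas9 variant, 400 arrangements, two-sided p = 0.005, added after the values were seen), and 91.8 without SpCas-ABE8e replicate 1. Over the 8 pairs of groups with enough reads this difference was 24.3 points (permutation p = 9e-05), and 1.58 without the exon 7 donor (permutation p = 0.0242).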

How the data were processed

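Genomic DNA of 80 Hepa1-6 samples was amplified around the splice sites by 2 rounds of PCR and sequenced on a MiSeq, and the authors counted alleles with CRISPResso2 after alignment to each amplicon (its version is not given in the sources used here). The deposited count is the number of reads of each allele in a window of 40 bases, without normalization. The deposited percent is that count divided by the table's total. No read carried a molecular identifier, so intervals and floors cover counting error only.

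Windows of minus-strand guides were reverse-complemented, gaps in the reference were dropped, and bases 11 to 30 were numbered 1 to 20. Windows were matched to GRCm39 and codons read from GENCODE M39 (Python 3.11.15, numpy 2.4.6, scipy 1.17.1). All changes of a read were translated together. Shares are percentages of all reads of a table. Groups follow the labels: the sgRNA, the Cas9 variant and the deaminase. The sample was the unit of every test, and the study describes replicates as independent experiments. Labels were permuted within strata (100000 resamples), signs flipped within samples, and 3 against 3 compared exactly, all two-sided. On 70 simulated tables, 530 of 530 shares were recovered. Adenines were described sample by sample where the mean of a group was over 1 percentage point above all controls, and alleles by the 3 with most reads in a group. For a share of 0, 3 reads give the upper limit. Alternatives changed the reads, positions, sites or replicates used. Same-numbered ABE8e and ABEmax samples deviated together (r over 0.1) in 15 of 30 pairs, so replicate numbers were not taken to pair samples. The members, gene models and tests were chosen with earlier results of these data known.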

Additional observations from a re-analysis of the deposited data

Results flagged for a closer look

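Groups of 2 and 3 samples were not screened for single samples far from the rest. The results below stood out because the effect of the deaminase differed between groups. At the exon 1 donor, ABE8e minus ABEmax for reads with any exonic G was -1.55 percentage points with SpCas and 1.97 with SpG, a difference of -3.52 (exact permutation test, p = 0.005, adjusted 0.015). It was -3.76 without the SpCas-ABEmax sample of 599 reads, and the opposite orders did not extend to target editing. An exchange of labels between the SpCas groups was not tested and would turn the SpCas value. For intronic bystander reads at this donor the same difference was -1.73 percentage points (exact permutation test, p = 0.01). Both tests took no deaminase effect with either Cas9 variant as their null, so neither tests whether the effects are equal. The cause of these differences was not tested.

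At the exon 7 donor, the excess of exonic G among target-edited over other reads was larger with ABE8e than with ABEmax by 92.3 percentage points (exact permutation test, p = 0.005), with a positive excess in all 6 ABE8e samples and a negative one in all 6 ABEmax samples. Its cause was not tested.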

How the results depend on the processing

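The 8 tests across samples were repeated under 121 alternatives in all, of which 107 kept direction and side of the threshold, 12 lost significance and 2 reversed. Restricted to adenines from position 13 on, the differences were 0.101 percentage points for codon-changing reads of edited against control samples, 0.148 for any exonic G of ABE8e against ABEmax, 0.0297 for its codon-changing reads, 0.353 among its target-edited reads, 0.0201 for SpCas against SpG and -0.161 among target-edited reads of SpCas against SpG, with permutation p from 0.151 to 0.906. In that setting the added comparisons gave 0.257 for the excess among target-edited reads of ABE8e against ABEmax, -0.00965 for the same at the exon 7 donor and -0.00992 for codon-changing reads without the target edit. Without the exon 7 donor, codon-changing reads of ABE8e against ABEmax differed by 0.154, any exonic G of SpCas against SpG by 0.036, and the latter among target-edited reads by -0.232, while codon-changing reads of edited against control samples (0.222), target-edited reads of ABE8e against ABEmax (1.66) and reads with against without the target edit (1.27) stayed past the threshold. Restriction to positions up to 12 left 3 sites for edited against control samples (18.0 points) and 4 pairs for ABE8e against ABEmax (27.3). Without the SpCas groups of the exon 1 donor, SpCas exceeded SpG by 6.18 points, and by 4.31 among target-edited reads.

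Leaving out each replicate number gave 0.358 to 0.567 points for codon-changing reads of ABE8e against ABEmax and 2.38 to 2.82 for target-edited reads of SpCas against SpG. It gave 91.5 to 93.2, -2.92 to -2.61 and -3.87 to -3.29 for the 3 comparisons over 400 arrangements, in which 2 samples against 2 cannot go below an exact permutation p of 0.0556. The count of adenines lower with ABE8e was 1 to 3. With the replicate block, target-edited reads of SpCas against SpG differed by 2.66 points (permutation p = 0.0626), and the block changed no other call. Of the other alternatives, chosen after seeing the data, counting pairs of tables within counting noise as 1 sample in 12 groups, leaving out the SpCas groups of the exon 1 donor, and leaving out SpCas-ABE8e replicate 1 of the exon 7 donor changed no call.

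Among 75 recalculated means of the 15 named combinations, 73 moved by no more than 1 SD. Keeping only alleles of at least 0.2% of reads lowered A12G at the exon 3 donor to 1.04% and A9G at the exon 7 donor with SpG-ABE8e to 0.956%, which put the latter below the limit of 1 percentage point. Shares near 0.1% rest on a few reads and were not resolved at this depth.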
